A study of Mus musculus with 18 samples.

Results

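The genes described here belong to the integrated stress response and to the amino acid supply that it governs. They are 35 genes of 21959 in the expression table, taken by symbol for their known role. The list was chosen with earlier results of these data known, so shares of members below are not independent of them. All 35 had enough reads to be tested. They are 4 genes of eIF2 phosphorylation (Eif2ak1, Eif2ak3, Eif2ak4, Eif2s1), 7 transcription factors (Atf3, Atf4, Atf5, Ddit3, Cebpb, Cebpg, Nupr1) and 7 feedback and stress genes (Ppp1r15a, Trib3, Chac1, Ddit4, Sesn2, Vldlr, Stc2). The other members are 10 amino acid and one-carbon enzymes (Asns, Psat1, Phgdh, Psph, Shmt2, Mthfd2, Aldh18a1, Pycr1, Gpt2, Cth) and 7 amino acid transporters (Slc7a5, Slc3a2, Slc7a1, Slc38a2, Slc1a5, Slc1a4, Slc6a9). Ddit3 has a second row in the table under another identifier, with 0 counts in all 18 libraries, and the row with reads was used.

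In this pathway, kinases that sense stress in the endoplasmic reticulum, lack of amino acids, heme shortage or double-stranded RNA phosphorylate the translation factor eIF2. General protein synthesis then slows, while the messenger RNA of the transcription factor ATF4 is translated more. ATF4 and its partners turn on genes for amino acid synthesis and uptake, for redox defence and for feedback that removes the phosphate, and the factor CHOP, encoded by Ddit3, acts further down the same branch. Because ATF4 is controlled largely by translation, the level of its messenger RNA is not the level of its protein.

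RNA was sequenced from MOVAS cells, an immortalised mouse aortic smooth muscle line, in 6 groups of 3 libraries. Blank cells had no treatment. H2O2 cells were given hydrogen peroxide and Dox cells doxorubicin, a drug that damages DNA, both as inducers of cellular senescence. In the labels of B_I, H_I and D_I the only treatment named is isoliensinine, a plant alkaloid. Their titles were taken to mean Blank, H2O2 and Dox cells with isoliensinine added. No dose or time is stated in the labels, and all groups come from this 1 line, with no other genetic change stated in the labels. Replicates are numbered 1 to 3 except in Blank, where they are 1, 2 and 4, and values below follow that order.

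Libraries held 12859609 to 23284077 counts, and the Dox libraries were the deepest, at 20140802 or more. The smooth muscle label was met in part: Acta2 ran from 806 to 4514 CPM (read counts scaled to the TMM-adjusted size of the library) and Myh11 from 1.30 to 31.7. Cnn1 ran from 1.31 to 12.8, and Tagln, also a defining marker, was near absent at 0 to 0.809. Tpm2 ran from 369 to 539 CPM, Smtn from 102 to 199 and Myl9 from 70.4 to 366. Mylk, Lmod1 and Des, the rest of the 10 smooth muscle markers listed, reached at most 17.6, 28.0 and 30.1 CPM. Of 5 fibroblast markers, Col1a1 ran from 1884 to 6031 CPM, Col3a1 from 12.4 to 191 and Pdgfra from 12.5 to 37.7. Dcn ran from 2.53 to 9.89 and Lum from 0 to 2.21, and the summed fibroblast markers, of which Col1a1 was the largest, were 5059, 5666 and 6231 CPM in Blank. In Dox the fibroblast sums were 1937, 1917 and 2058 CPM and the smooth muscle sums 2826, 2552 and 2450. In D_I they were 2021, 2159 and 2160 against 1502, 1577 and 1788, so which sum was larger varied between libraries. The leukocyte gene Ptprc ran from 0.247 to 3.91 CPM, the macrophage genes Cd68 from 0.977 to 23.2 and Lyz2 from 2.91 to 33.1, and the endothelial gene Pecam1 from 0.257 to 5.40. The summed smooth muscle markers were 1517, 1562 and 5676 CPM in Blank and 1793, 1886 and 4906 in B_I, so that Blank replicate 4 and B_I replicate 3 stood apart from the other libraries of their groups. Their TMM factors, by which library totals are multiplied, were also the lowest, at 0.846 and 0.868, beside 0.945 to 1.07 in the other libraries. A lower factor gives a higher CPM for the same count and total. The summed level of 9 colon epithelium markers was highest in H_I replicate 1, at 774 CPM, while in H2O2 it was 57.2, 46.0 and 179 CPM and in Blank 195, 139 and 64.2.

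Levels between genes were compared per gene length, as the authors' FPKM values averaged over the 18 libraries. The most abundant member was Atf5, an ATF4-related transcription factor, at 604 FPKM. It was followed by Phgdh, which starts serine synthesis, at 406 and by Asns, asparagine synthetase, at 246. Atf4 itself was at 145 FPKM, above Ddit3 at 14.8 and Atf3 at 9.51. The eIF2 kinases were low, with Eif2ak1 at 9.78, Eif2ak4 at 2.01 and Eif2ak3 (PERK, the kinase of the endoplasmic reticulum) at 1.76. Cth, Stc2 and Vldlr were lowest, at 0.992, 0.953 and 0.725 FPKM, and Cth had as few as 3 counts in a library.

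The promoters of the members were searched for the letters of the C/EBP-ATF response element, which ATF4 is known to bind as a dimer with C/EBP proteins. The letters were TGATGNAA on either strand (TTNCATCA when read on the other), in RefSeq windows of 300 bases, from 250 before to 50 after the gene start (build GRCm38.p6). Of 32 members with a window, 8 held a match (25%), and of all 27025 genes with a window 1219 did (4.51%). Cth, Slc7a5 and Slc1a5 had no window. The matches are printed below 5′ to 3′ on the strand of the gene with the 8 letters in capitals, because they show which members carry the element. Many members were taken as known ATF4 targets, so the share of members with a match is not independent of that choice.
Atf3: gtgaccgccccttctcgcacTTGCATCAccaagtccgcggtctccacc
Nupr1: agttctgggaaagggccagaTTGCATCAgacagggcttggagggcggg
Chac1: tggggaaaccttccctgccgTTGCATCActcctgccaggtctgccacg
Vldlr: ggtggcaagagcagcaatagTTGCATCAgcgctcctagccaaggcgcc
Trib3: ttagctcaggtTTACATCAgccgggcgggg
Asns: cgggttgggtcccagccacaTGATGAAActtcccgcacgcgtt
Pycr1: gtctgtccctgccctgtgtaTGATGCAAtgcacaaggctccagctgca
Slc1a4: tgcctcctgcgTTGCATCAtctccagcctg
The stretches lie at chr1:191183416-191183463 (Atf3, minus strand), chr7:126625553-126625600 (Nupr1, minus), chr2:119351029-119351076 (Chac1, plus), chr19:27216800-27216847 (Vldlr, plus), chr2:152344028-152344057 (Trib3, minus), chr6:7693210-7693252 (Asns, minus), chr11:120643824-120643871 (Pycr1, minus) and chr11:20332699-20332728 (Slc1a4, minus). The match in Atf3 began 110 bases before the gene start, that in Asns 23 bases before it, and that in Trib3 lay after the start. A match describes letters only, and no match says only that they are absent from this window.

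The comparison of H2O2 with Blank asks how peroxide changed these genes. Of the 35 members, 7 rose and 1 fell, against 1.43% of the 13375 genes tested that passed in either direction (0.636% higher and 0.793% lower). Atf3, Ddit3, Cebpb, Ppp1r15a, Atf4, Gpt2 and Sesn2 rose and Atf5 fell, so that 5 of the 7 transcription factors passed but 1 of the 10 enzymes and none of the 7 transporters or of the 4 eIF2 genes. The median log2 fold change over the members was 0.19, beside -0.02 over all genes tested. Calls were made at a Benjamini-Hochberg adjusted p under 0.05 over all genes tested, from edgeR's quasi-likelihood test. The median half-width of the members' 95% intervals was 0.29 on the log2 scale. In bulk RNA, fewer cells of a kind and less RNA per cell cannot be told apart.

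Atf3, a stress-induced factor that represses and tunes ATF4 targets, stood at 12.2, 10.2 and 8.57 CPM in Blank and 25.3, 21.3 and 41.9 in H2O2. Its level rose 2.85-fold (log2 1.51 ± 0.21 SE, edgeR adjusted p = 0.000469). Every H2O2 library was above every Blank library, and H2O2 replicate 3 was the highest of the 18.

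Atf4 was at 249.6, 239 and 271 CPM in Blank and 385, 345 and 518 in H2O2. The rise was 1.64-fold (log2 0.72 ± 0.13 SE, edgeR adjusted p = 0.00523). Again the groups did not overlap and replicate 3 of H2O2 was highest. Ddit3 was at 19.1, 16.1 and 9.69 CPM in Blank and 25.9, 27.3 and 40.1 in H2O2, with a log2 fold change of 1.05 ± 0.22 SE (edgeR adjusted p = 0.0145). Without H2O2 replicate 3 the change in Ddit3 was 0.83 and no longer passed (edgeR adjusted p = 0.066).

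Cebpb, which encodes the C/EBP beta partner of ATF4, had 13.0, 13.0 and 14.1 CPM in Blank and 24.4, 19.8 and 31.5 in H2O2 (log2 0.91 ± 0.18 SE, edgeR adjusted p = 0.012). Its groups were separate, and without H2O2 replicate 3 the log2 value was 0.72 (edgeR adjusted p = 0.0568). Ppp1r15a (GADD34), which brings the phosphatase that ends the response to eIF2, had 59.3, 64.2 and 61.8 CPM in Blank and 93.2, 88.7 and 141 in H2O2 (log2 0.80 ± 0.14 SE, edgeR adjusted p = 0.00298). Blank libraries lay close together, and the spread in H2O2 came from its replicate 3.

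Sesn2, a stress sensor that holds back mTORC1, had 118, 102 and 138 CPM in Blank and 188, 148 and 169 in H2O2 (log2 0.50 ± 0.11 SE, edgeR adjusted p = 0.03). Gpt2, the mitochondrial alanine aminotransferase and the enzyme that passed, had 40.04, 44.6 and 42.2 CPM in Blank and 61.7, 67.1 and 68.7 in H2O2 (log2 0.64 ± 0.12 SE, edgeR adjusted p = 0.00526). For both genes the groups were separate, and H2O2 replicate 3 was not far from the other libraries of its group. Atf5 went the other way, from 1467, 1364 and 2068 CPM in Blank to 1012, 1023 and 1153 in H2O2 (log2 -0.62 ± 0.14 SE, edgeR adjusted p = 0.0242), and Blank replicate 4 was the highest of its group. Without that library the Atf5 value was -0.41 and did not pass (edgeR adjusted p = 0.0638).

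**Figure D1:**
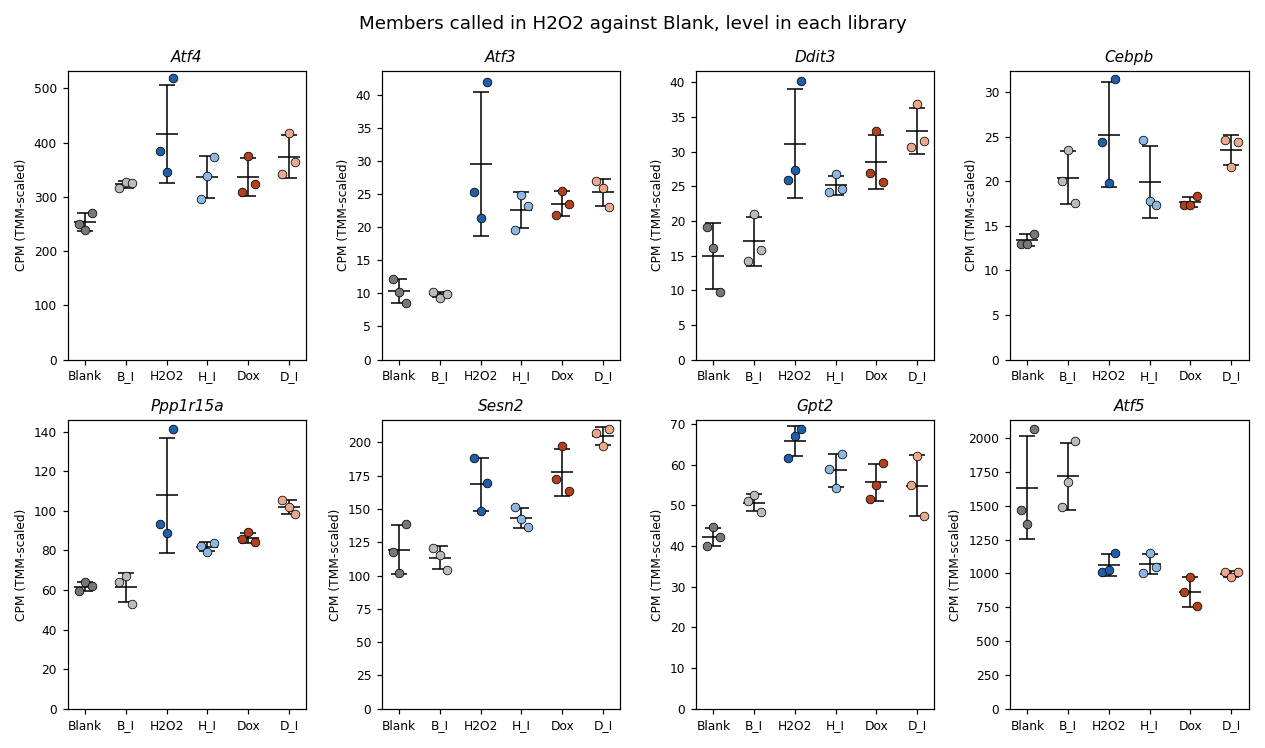
Level of the 8 members called in H2O2 against Blank, in TMM-scaled CPM from 0, for each of the 18 libraries; points are libraries in replicate order, and bars are the group mean ± SD (n = 3). H2O2 replicate 3 is the highest H2O2 library for Atf4 (518 CPM), Atf3 (41.9), Ddit3 (40.1), Cebpb (31.5) and Ppp1r15a (141), and Atf5 is lower in every H2O2 and Dox library than in every Blank library.

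Other members of the stress arm had values in the same direction that did not pass the test. Trib3, a pseudokinase that feeds back on ATF4 and CHOP, had 222, 213 and 260.3 CPM in Blank and 294, 271 and 346 in H2O2 (log2 0.39, edgeR adjusted p = 0.0826). Chac1, which degrades glutathione, had 101, 104 and 176 CPM in Blank and 163, 147 and 237 in H2O2 (log2 0.52, edgeR adjusted p = 0.162). Their levels overlapped in Chac1, where Blank replicate 4 exceeded 2 of the H2O2 libraries, and not in Trib3. Without Blank replicate 4 and B_I replicate 3, Trib3 had a log2 value of 0.49 (edgeR adjusted p = 0.0067) and Chac1 one of 0.83 (0.000668), and both passed. Nupr1, a small stress-induced chromatin protein, had 12.8, 17.4 and 24.9 CPM in Blank and 24.7, 18.2 and 78.7 in H2O2 (log2 1.14, edgeR adjusted p = 0.163), and of the H2O2 libraries only replicate 3 lay above the highest Blank library. Stc2, a secreted glycoprotein, had a log2 value of 1.01 (edgeR adjusted p = 0.0933), with 2.43, 4.07 and 2.03 CPM in Blank and 5.43, 5.95 and 5.90 in H2O2.

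Apart from Gpt2, enzymes and transporters of amino acid supply did not pass the test. Asns had 580.5, 574 and 753 CPM in Blank and 724, 707 and 769 in H2O2, a log2 difference of 0.21 (95% interval -0.01 to 0.42). Phgdh had 864, 917 and 1084 CPM in Blank and 1049.6, 1043 and 1126 in H2O2 (log2 0.17, interval -0.04 to 0.38). Psat1, the next enzyme of serine synthesis, had 614, 581 and 697 CPM in Blank and 599, 617 and 657 in H2O2 (log2 -0.01, interval -0.20 to 0.17). All 3 overlapped between the groups, and Blank replicate 4 was the highest Blank library in each. Slc7a5, the large neutral amino acid carrier, had 431, 429.5 and 603 CPM in Blank and 545, 482 and 501 in H2O2 (log2 0.06, interval -0.18 to 0.30). Its partner chain Slc3a2 had separate groups (log2 0.34, edgeR adjusted p = 0.09) and did not pass. Over the enzymes the median log2 value was 0.18, over the transporters 0.07 and over the transcription factors 0.91.

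The peroxide calls depended on the libraries and on the model. Without H2O2 replicate 3, in which the summed colon markers were highest of the group, 5 members passed (Atf4, Atf3, Atf5, Ppp1r15a and Gpt2). Atf5 did not pass either without H2O2 replicate 1 or 2, Cebpb without Blank replicate 1, or Sesn2 without any 1 of Blank replicates 1 and 2 and H2O2 replicates 1 and 3. Without Blank replicate 4 alone 10 passed, all higher, with Trib3, Chac1 and Asns gained and Atf5 lost. Without Blank replicate 4 and B_I replicate 3, 13 passed. Without these 2, H2O2 replicate 3 and H_I replicate 1, 4 libraries in all, 13 passed. For these fits with libraries left out, calls over all genes are not given here. The counts alone therefore do not set the members apart from other genes. In a fit on the 6 libraries of these groups alone no member passed (5 of all genes did), where Atf4 had an edgeR adjusted p of 0.213 and Atf3 0.160. The summed colon markers of H2O2 replicate 3, 179 CPM, lay within the range of the Blank libraries, and their part in these results was not tested. This library also differed from its group over genes in general. Its chi-square per degree of freedom was 28.0 against H2O2 replicate 1 and 36.9 against replicate 2, beside 9.38 between those 2. Groups did not overlap for 11 of the 35 members (10 higher, 1 lower), beside 13.7% of all genes tested.

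The comparison of Dox with Blank gives the same genes under a second senescence inducer and shares the Blank libraries. Of the members, 10 rose and 5 fell, against 21.7% of all genes tested in either direction (10.3% higher, 11.4% lower), and the median log2 value was 0.12 beside 0.08 for all genes. In the limma fit on log2(FPKM + 1) with the 1 FPKM filter, where values are scaled to library totals alone, 18 members were higher and 2 lower (2625 of 3675 calls over all genes were higher, against 1372 of 2896 in edgeR), and the median over all genes was 0.18. Without the filter 13 members were higher and 2 lower. Trib3 and Pycr1 were called in neither of these fits, and Vldlr, left out by the filter, was not called without it. Atf3, Ddit3, Sesn2, Ppp1r15a, Atf4 and Gpt2 rose here too and Atf5 fell, as 7 of the 8 peroxide calls (87.5%) and 7 of the 15 Dox calls (46.7%). Both comparisons use the same Blank libraries, and the overlap over all genes was not taken, so these shares do not set the members apart. Called in Dox but not in H2O2 were Stc2, Eif2ak3, Slc7a1 (a carrier of arginine and lysine) and Eif2s1 (the alpha subunit of eIF2) upward and Vldlr, Slc6a9, Pycr1 and Trib3 downward, with no test of the difference between the treatments. A further 19 members were called in neither, among them Ddit4, an mTORC1 inhibitor (log2 0.14 in H2O2 and 0.07 in Dox), Mthfd2, an enzyme of mitochondrial folate metabolism (-0.10 and 0.12), and Slc38a2, a carrier of small neutral amino acids (-0.08 and 0.06). The Dox libraries were deeper than the Blank libraries, and the part of depth was not tested. Groups did not overlap for 18 members (12 higher, 6 lower), beside 36.1% of all genes.

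Atf3 stood at 21.8, 25.4 and 23.5 CPM in Dox (log2 1.19 ± 0.21 SE, edgeR adjusted p = 0.000272). Ddit3 stood at 26.9, 32.9 and 25.7 CPM (log2 0.92 ± 0.21 SE, edgeR adjusted p = 0.00346). The Dox libraries lay closer together than the H2O2 libraries in both genes. Eif2ak3, the kinase PERK, had 8.16, 8.87 and 7.44 CPM in Blank and 13.3, 14.9 and 13.7 in Dox (log2 0.77 ± 0.20 SE, edgeR adjusted p = 0.00727). Stc2 had 4.61, 5.53 and 5.07 CPM in Dox (log2 0.83 ± 0.29 SE), just inside the threshold at an edgeR adjusted p of 0.0486. Sesn2 had 172, 197 and 163 CPM in Dox (log2 0.57 ± 0.11 SE, edgeR adjusted p = 0.00101).

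Members that fell included genes that the pathway is known to turn on. Atf5 had 862, 974 and 756 CPM in Dox (log2 -0.92 ± 0.14 SE, edgeR adjusted p = 5.98e-05). Vldlr, a lipoprotein receptor, had 7.60, 11.1 and 5.33 CPM in Blank and 4.81, 4.42 and 4.39 in Dox (log2 -0.82 ± 0.26 SE, edgeR adjusted p = 0.0265). Slc6a9, a glycine transporter, had 63.7, 63.2 and 87.0 CPM in Blank and 45.4, 50.9 and 42.9 in Dox (log2 -0.62 ± 0.13 SE, edgeR adjusted p = 0.00121). In all 3 genes every Dox library lay below every Blank library.

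Pycr1, which makes proline, had 92.7, 105 and 153 CPM in Blank and 81.6, 89.8 and 70.2 in Dox (log2 -0.54 ± 0.15 SE, edgeR adjusted p = 0.0116). Trib3 had 183, 203 and 165 CPM in Dox (log2 -0.34 ± 0.11 SE, edgeR adjusted p = 0.0328). In Trib3 the value in Dox was below Blank and the value in H2O2 above it, and Atf4 in Dox was at 308, 376 and 324 CPM, between Blank and H2O2 in its mean. Without Blank replicate 4, Pycr1 had a log2 value of -0.33 (edgeR adjusted p = 0.0875) and Trib3 one of -0.27 (0.0872), and neither passed. Eif2s1 (0.38, 0.122) and Stc2 (0.61, 0.221) did not pass without it either. Leaving out another single library also ended the calls of Atf4 (Blank 1 or 2, Dox 2), Gpt2 (Blank 1), Stc2 (Blank 1, Dox 1 or 2), Trib3 (Dox 1) and Vldlr (Blank 2, Dox 1 or 2). Without Dox replicate 3, 8 members passed (Eif2ak3, Atf3, Atf5, Ddit3, Ppp1r15a, Sesn2, Slc7a1 and Slc6a9), so that Atf4, Gpt2, Stc2, Eif2s1, Vldlr, Trib3 and Pycr1 did not. 

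Core members that did not pass in Dox overlapped with Blank. Asns had 586, 674 and 558 CPM (log2 -0.07, interval -0.29 to 0.15). Phgdh had 883, 922 and 764 CPM (log2 -0.16, interval -0.37 to 0.05), and Psat1 629.8, 669.6 and 606 (log2 0.01, interval -0.18 to 0.20). Chac1 had 117, 135 and 116 CPM (log2 -0.05) and Slc7a5 497, 571 and 495 (log2 0.09). Of the 8 members with the response element letters in the promoter, Atf3 was called in both treatments and Trib3, Pycr1 and Vldlr were called lower in Dox, and Nupr1, Chac1, Asns and Slc1a4 were called in neither.

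**Figure D2:**
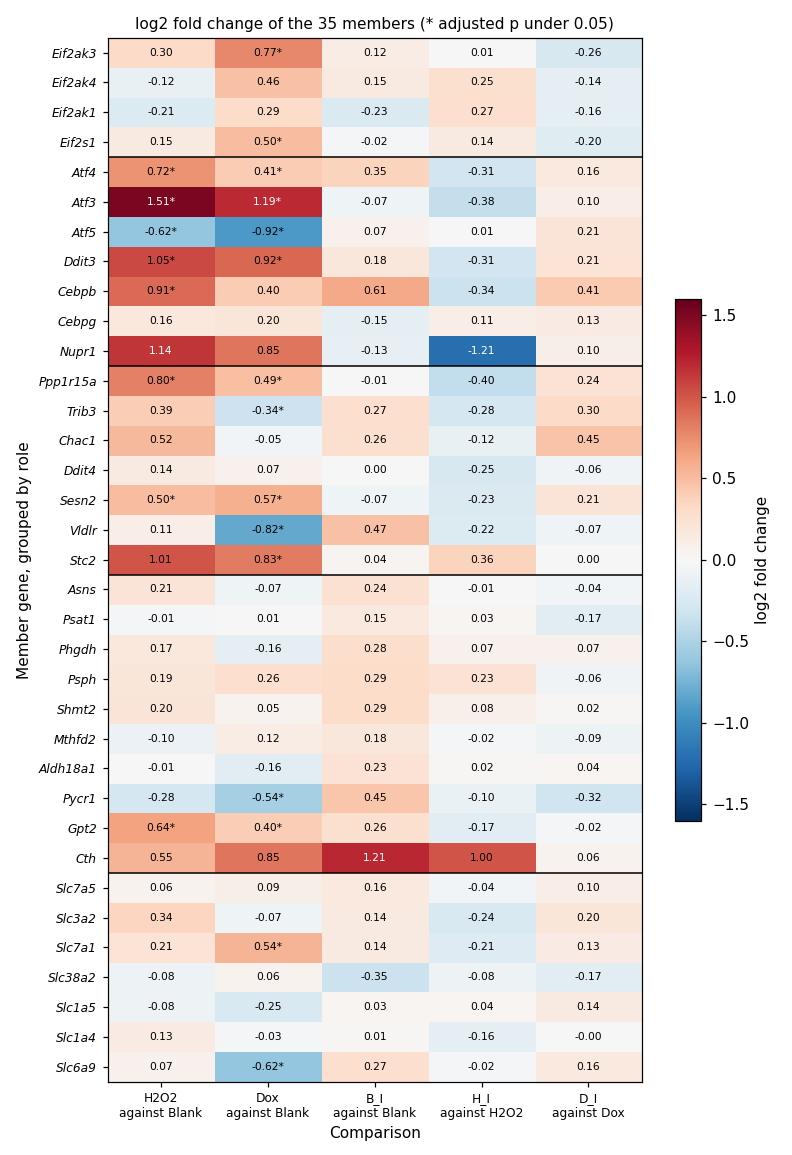
log2 fold change of each of the 35 members (rows, grouped by role, with lines between the roles) in 5 comparisons (columns); colour and printed value give the log2 fold change, and a star marks an adjusted p under 0.05. Stars stand in the H2O2 (8) and Dox (15) columns and in none of the 3 isoliensinine columns.

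In untreated cells, B_I against Blank, isoliensinine left no member past the threshold. No gene of the 13375 passed either (0%), with DESeq2 1 gene and no member passed, and with limma 0 genes. The lowest edgeR adjusted p of a member was 0.917. At an unadjusted p under 0.05, 12 members stood out, all with higher levels in B_I (34.3% of members, beside 4.79% of all genes tested in either direction and 2.06% higher). Their log2 values ran from 0.23 for Aldh18a1, which starts proline synthesis, to 1.21 for Cth, which makes cysteine. Of the 10 enzymes all had a log2 value above 0 and 8 were under that unadjusted p, with a median of 0.27. Over all genes tested the median was -0.01. The count of 12 members depended on the libraries. It was 4 without B_I replicate 2 (526 of all genes), 5 without Blank replicate 1 (638) and 6 without Blank replicate 2 (590). Without Blank replicate 4 it was 18 (1758 of all genes), and in a fit on these groups alone it was 3 (219).

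Phgdh had 1126, 1261 and 1103 CPM in B_I beside 864, 917 and 1084 in Blank (log2 0.28, 95% interval 0.08 to 0.49, edgeR adjusted p = 0.967). Asns had 705, 758 and 793 CPM in B_I (log2 0.24, interval 0.03 to 0.46, edgeR adjusted p = 0.998). Psat1 had 710.3, 719 and 678 CPM in B_I (log2 0.15, interval -0.03 to 0.34, edgeR adjusted p = 0.998). The Phgdh groups were separate by little, since Blank replicate 4 was near the B_I libraries, and the Asns and Psat1 groups overlapped. Pycr1 had 154, 167 and 158 CPM in B_I (log2 0.45, interval 0.14 to 0.76) and Shmt2, which turns serine to glycine, 415, 472 and 384 beside 329.6, 317 and 394 in Blank (log2 0.29, interval 0.07 to 0.51).

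Atf4 had 316, 328 and 326 CPM in B_I, all above Blank (log2 0.35, interval 0.09 to 0.62, edgeR adjusted p = 0.967). Cebpb had 20.02, 23.5 and 17.6 CPM, also separate (log2 0.61, interval 0.23 to 0.98, edgeR adjusted p = 0.917). Atf3, Ddit3 and Ppp1r15a, which rose with peroxide, had log2 values of -0.07, 0.18 and -0.01, with 10.2, 9.36 and 9.95 CPM for Atf3, 14.3, 21.04 and 15.9 for Ddit3 and 64.1, 67.0 and 53.1 for Ppp1r15a in B_I. Trib3 had 268, 312 and 258 CPM and Chac1 136, 162 and 158 (log2 0.27 and 0.26), and Slc7a5 521, 537 and 576 (log2 0.16). Groups did not overlap for 6 members, all higher, beside 7.29% of all genes. Leaving out the 4 libraries Blank 4, B_I 3, H2O2 3 and H_I 1, 6 members passed, beside 53 of all genes. They were Cebpb, Trib3, Chac1, Phgdh, Shmt2 and Pycr1, each with a positive value. Without Blank replicate 4 and B_I replicate 3 alone no member passed.

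**Figure D3:**
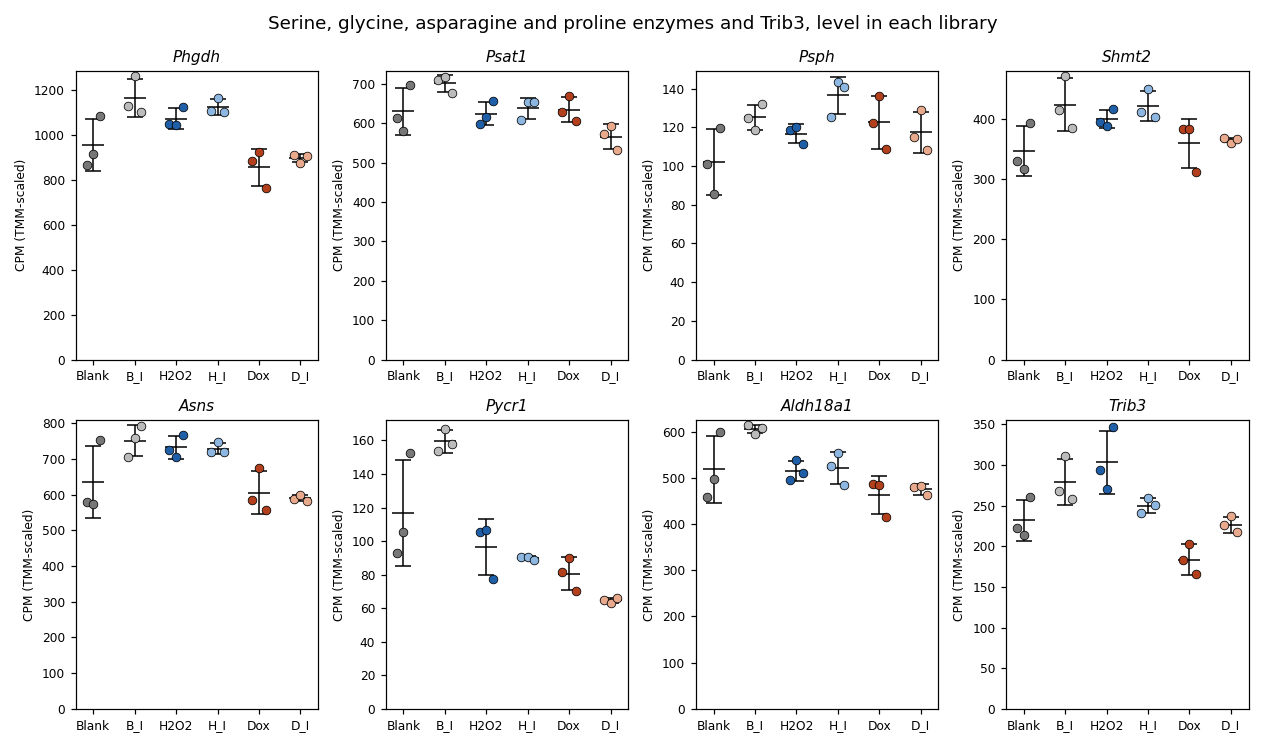
Level of 7 serine, glycine, asparagine and proline enzymes and of Trib3 in TMM-scaled CPM from 0, for each of the 18 libraries; points are libraries in replicate order and bars are the group mean ± SD (n = 3). Blank replicate 4 is the highest Blank library in each panel (Pycr1 at 153 CPM beside 92.7 and 105), and Pycr1 is at 154 to 167 CPM in B_I but between 63.0 and 90.5 CPM in H_I, Dox and D_I.

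With peroxide, H_I against H2O2, no member passed the test either (0% of genes passed; DESeq2 called 67 genes and no member, limma 0 to 2 genes and no member). At an unadjusted p under 0.05 there were 5 members, all lower in H_I (14.3% of members, beside 6.84% of all genes in either direction and 2.5% lower): Nupr1, Ppp1r15a, Trib3, Slc3a2 and Atf4. The lowest edgeR adjusted p of a member was 0.445. Atf4 had 385, 345 and 518 CPM in H2O2 and 297, 338 and 373 in H_I (log2 -0.31, interval -0.58 to -0.04, edgeR adjusted p = 0.641), and its groups overlapped. Ppp1r15a had 93.2, 88.7 and 141 CPM in H2O2 and 82.2, 79.4 and 83.9 in H_I (log2 -0.40, interval -0.68 to -0.12, edgeR adjusted p = 0.485). Trib3 had 294, 271 and 346 CPM in H2O2 and 240.4, 259 and 251 in H_I (log2 -0.28, interval -0.51 to -0.05, edgeR adjusted p = 0.609). The last 2 genes, and Slc3a2, were separate and lower, and 6 members in all had separate groups (3 higher, 3 lower), beside 12.1% of genes.

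Because H2O2 replicate 3 held the highest levels of Atf4, Ppp1r15a, Trib3 and Nupr1, these values were taken again without it. Atf4 then had a log2 value of -0.12, Ppp1r15a one of -0.15 and Trib3 one of -0.17, each nearer 0 than with it. Nupr1 moved from -1.21 to -0.29, and Slc3a2 from -0.24 to -0.13. None of the 35 members passed in any of the 18 settings tried, and 33 of them had a 95% interval inside a 2-fold change either way (all but Nupr1 and Cth). 

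Of the other core members, Atf3 stood at 19.6, 24.9 and 23.2 CPM in H_I (log2 -0.38, interval -0.80 to 0.03). Ddit3 stood at 24.1, 26.7 and 24.6 CPM (log2 -0.31, interval -0.75 to 0.13). Both remained above every Blank library, as their levels there show. Asns had 720.2, 747 and 719.5 CPM in H_I (log2 -0.01, interval -0.23 to 0.21). Phgdh had 1106, 1164 and 1099.9 CPM (log2 0.07) and Psat1 608, 654 and 654 (log2 0.03). These 3 enzymes overlapped the H2O2 libraries. Chac1 had 171, 163 and 168 CPM (log2 -0.12) and Slc7a5 466, 516 and 502 (log2 -0.04), and both overlapped H2O2. Cth had 5.83, 3.52 and 3.37 CPM in H_I and 1.69, 1.92 and 2.72 in H2O2 (95% interval of the log2 difference -0.05 to 2.06), and it was highest in H_I replicate 1, where the summed hepatocyte markers were also highest (326 CPM), a link that was not tested.

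With doxorubicin, D_I against Dox, no member passed (0% of genes passed; DESeq2 called 20 genes and no member, limma 1 gene and no member), and the lowest edgeR adjusted p of a member was 0.980. Unadjusted p under 0.05 was reached by 4 members (11.4%, beside 4.16% of all genes, 2.15% higher and 2% lower): Trib3, Chac1 and Cebpb with higher values and Pycr1 with a lower one. Trib3 had 183, 203 and 165 CPM in Dox and 226, 237 and 217 in D_I (log2 0.30, interval 0.07 to 0.53). Chac1 had 117, 135 and 116 CPM in Dox and 172, 176 and 156 in D_I (log2 0.45, interval 0.09 to 0.82). Both were separate, and in a fit on the 6 Dox and D_I libraries alone these 2 members passed (263 of all genes did), with edgeR adjusted p of 0.0393 and 0.00399. Of the members, 11 had separate groups (7 higher, 4 lower), beside 18.8% of all genes. In D_I, Atf4 was at 341, 417 and 364 CPM (log2 0.16), Atf3 at 27.0, 25.9 and 23.01 (0.10), Ddit3 at 30.7, 36.8 and 31.5 (0.21) and Ppp1r15a at 105, 102 and 98.5 (0.24). These levels of stress genes were all above those of Blank. Asns was at 589, 599 and 583 CPM (log2 -0.04) and Phgdh at 910.0, 875 and 908 (0.07). Psat1 was at 574, 593 and 532 CPM (-0.17), below every Dox library, and Slc7a5 at 535, 604 and 539.7 (0.10).

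**Figure D4:**
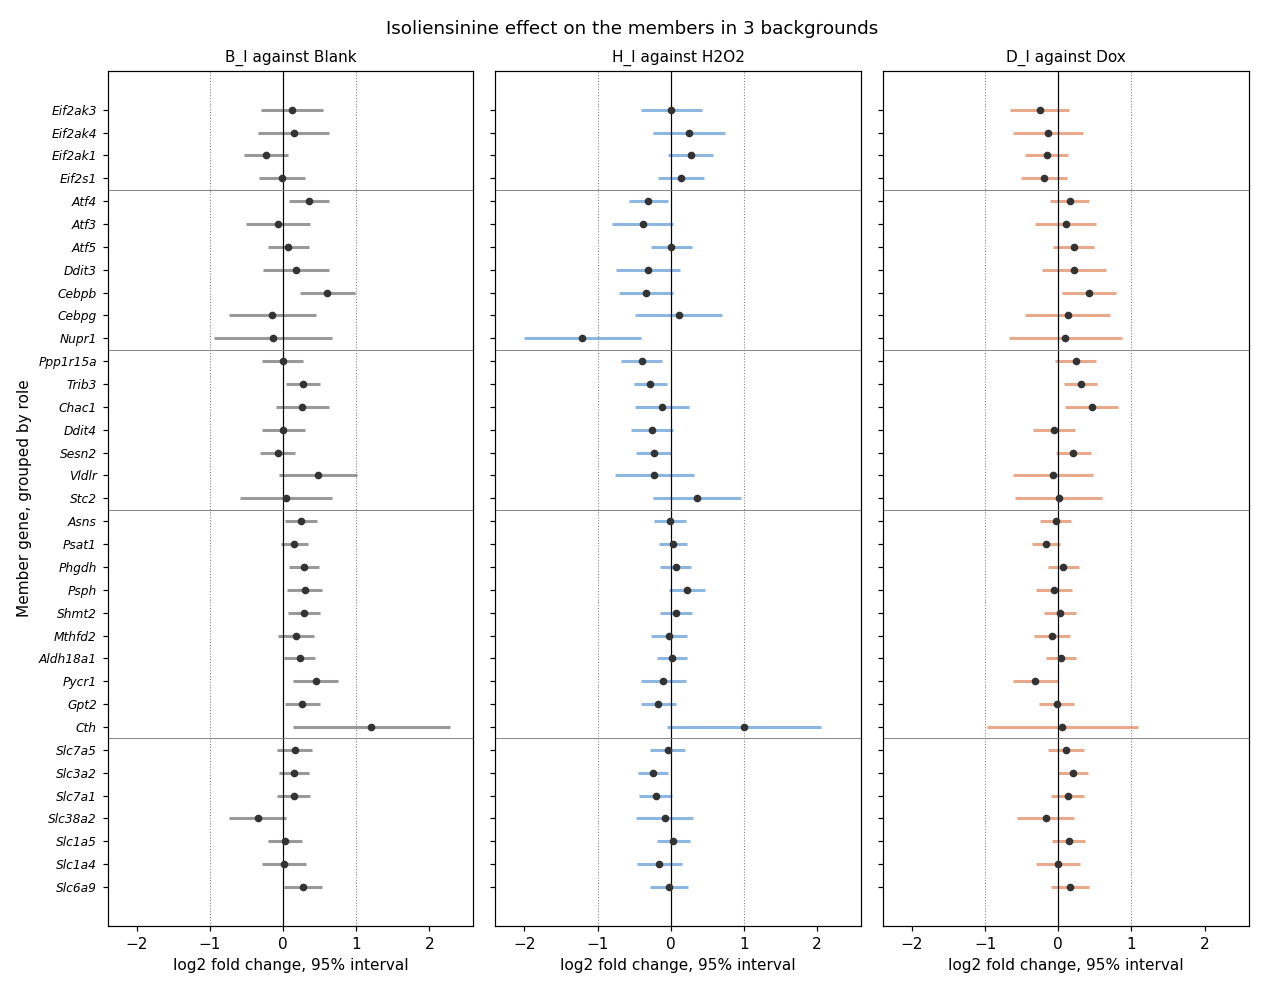
log2 fold change (dot) and 95% interval (line) of each of the 35 members for isoliensinine against its own background, in untreated (left), peroxide (middle) and doxorubicin (right) cells; the dotted lines mark a 2-fold change either way. The intervals of 33, 33 and 34 members lie inside the dotted lines.

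The isoliensinine effects in the 3 backgrounds were compared by the difference of the differences, and no member or gene passed in any of these 3 tests (0%; DESeq2 called 2 to 4 genes, limma 0 to 1, and no member). At an unadjusted p under 0.05, 8 members differed between the peroxide and the untreated background (beside 6.08% of all genes, 4% higher and 2.08% lower), 7 of them lower with peroxide and 1, Eif2ak1, higher. Cebpb had a difference of -0.95, Atf4 -0.66, Trib3 -0.55 and Pycr1 -0.55, with an edgeR adjusted p of 0.765 or above. Between the peroxide and the doxorubicin background there were 10 (beside 7.88%, 3.95% higher and 3.93% lower), 9 of them lower with peroxide, among them Ppp1r15a at -0.63, Trib3 at -0.58 and Chac1 at -0.57. Both contrasts with peroxide use H2O2 replicate 3, which held the highest levels of several of these genes. Over 23 settings the difference to doxorubicin ran from -0.75 to -0.39 for Ppp1r15a and from -0.65 to -0.46 for Trib3. For Atf4 it ran from -0.58 to -0.21 and for Nupr1 from -1.65 to -0.39. Between doxorubicin and untreated cells there were 3, all lower (beside 3.9%, 1.99% higher and 1.91% lower), with Pycr1 at -0.76, and Pycr1 passed without Blank replicate 4 (edgeR adjusted p = 0.0352).

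The values set side by side for peroxide and isoliensinine share the H2O2 libraries, so a high value there raises one and lowers the other. For Atf4 they were 0.72 for H2O2 against Blank and -0.31 for H_I against H2O2. For Atf3 they were 1.51 and -0.38, for Ppp1r15a 0.80 and -0.40, and for Gpt2 0.64 and -0.17. H_I against Blank, which uses none of the H2O2 libraries, had 4 members called (beside 2.41% of all genes, 0.74% higher and 1.67% lower): Atf3 at 1.13, Stc2 at 1.37 and Gpt2 at 0.47 upward and Atf5 at -0.61 downward. Without H_I replicate 1 or H_I replicate 3 Atf3 alone passed there. Without Blank replicate 4 Atf3, Chac1 and Psph passed, and Stc2 (1.20, edgeR adjusted p = 0.069), Gpt2 (0.49, 0.0551) and Atf5 (-0.39, 0.0897) did not. With all libraries, Atf4 had 0.41 in H_I against Blank (edgeR adjusted p = 0.0982) and Ppp1r15a 0.41 (edgeR adjusted p = 0.122).

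The peroxide and doxorubicin differences were also taken within the isoliensinine arms, from libraries that share none with H2O2, Dox or Blank. In H_I against B_I, Atf3 at 1.20 and Stc2 at 1.33 rose and Pycr1 at -0.83 and Atf5 at -0.68 fell (1.46% of all genes passed, 0.464% higher and 0.994% lower). Without H_I replicate 1, in which colon markers were highest, Atf3 alone passed, and without H_I replicate 3 or B_I replicate 3 Atf3 and Pycr1 did. Stc2 did not pass without B_I replicate 2 either. Over the 35 members, the log2 values of H2O2 against Blank and of H_I against B_I had a Pearson r of 0.71 and a Spearman rho of 0.61, across genes of 4 separate groups of libraries, and genes are not independent replicates. Over all genes tested, which were not matched to the members for expression level, Pearson r was 0.10. The values had the same sign in 21 of the 35 members, beside 63.1% of all genes. Atf4 had 0.06 in H_I against B_I, Gpt2 0.21 and Cebpb -0.03, lower than with peroxide alone. The gap between these pairs of values is the same quantity as the difference of isoliensinine effects above, for which no member passed.

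In D_I against B_I, 5 members rose and 8 fell (18.8% of all genes passed, 9.41% higher and 9.41% lower). Atf3 (1.36), Ddit3 (0.95), Sesn2 (0.85), Ppp1r15a (0.73) and Slc7a1 (0.52) rose. Vldlr (-1.37), Pycr1 (-1.30), Atf5 (-0.78), Slc6a9 (-0.73), Phgdh (-0.37), Asns (-0.35), Aldh18a1 (-0.35) and Psat1 (-0.31) fell. Of these, Asns and Aldh18a1 did not pass without any 1 of the 3 D_I libraries, Psat1 without D_I replicate 1 or 3, or Phgdh without D_I replicate 2, and Aldh18a1, Psat1 and Phgdh passed in none of the 3 limma fits on FPKM. In those fits the split was 11 higher and 4 lower with the 1 FPKM filter and 9 higher and 5 lower without it. Over all genes, 2293 of 3164 calls were higher with the filter on log2(FPKM + 0.1) and 2333 of 3209 on log2(FPKM + 1). Without the filter 2217 of 2995 were higher, against 1259 of 2518 in edgeR. Over the members the values of Dox against Blank and D_I against B_I had a Pearson r of 0.87 and a Spearman rho of 0.85. Over all genes, again not matched for level, Pearson r was 0.56. The values had the same sign in 29 of 35 members, beside 77.9% of all genes.

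Genes of the pathway outside the members were read from 4 lists, beside shares of 1.43% (peroxide) and 21.7% (doxorubicin) of all genes called. With peroxide none of 22 aminoacyl-tRNA synthetases, 21 eIF2 and eIF2B genes or 21 genes of the unfolded protein response of the endoplasmic reticulum passed, and of 34 tested other ATF4 and CHOP targets 3 rose: Cdkn1a at 1.16, Hmox1 at 0.73 and Got1 at 0.48. Cdkn1a is also a target of p53 and Hmox1 of NRF2. With doxorubicin 9 of 22 synthetases rose and 3 fell (54.5% called), among them Lars at 0.93 and Tars at 0.92 against Fars2 at -0.51 and Sars at -0.51. Of the 21 unfolded protein response genes 7 rose and 2 fell (42.9%), with Ern1 at 1.26 and Hspa5 at 1.14 against Edem1 at -0.50 and Herpud1 at -0.45. Of the 34 other targets 6 rose and 8 fell (41.2%), with Tnfrsf10b at 1.27 and Gdf15 at 0.94 against Pck2 at -1.03 and Ndrg1 at -0.81, and of the 21 eIF2 and eIF2B genes 3 rose and 2 fell (23.8%, near the share of all genes). Leaving out a single library ended the calls of Got1 (any Blank library, H2O2 1 or 2) and Gdf15 (Dox 2), and Sars passed in none of the limma fits. In the 3 isoliensinine comparisons no gene of these lists passed in edgeR's test.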

How the data were processed

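Per the labels' protocols, polyadenylated RNA of MOVAS cells was sequenced. Per the file headers, the deposited table holds whole-number read counts per gene and FPKM values made by the authors; each FPKM equalled, within a relative tolerance of 1e-06, count times 1e+09 over gene length times library total. The submitters' processing notes name HISAT2 2.1.0, HTSeq 0.9.1 and fastp 0.22.0, with no role for any. For the genome build and strand setting, nothing is given in the sources used here. No column belonged to a sample outside the series (0).

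Counts were tested with edgeR 4.0.16 in R 4.3.3 (quasi-likelihood, TMM scaling, filterByExpr, 1 model of 18 libraries with a mean per group, 12 residual degrees of freedom), adjusted by Benjamini-Hochberg over 13375 genes. The code was tested on simulated data. CPM are TMM-scaled, values ± are SD (n = 3) in figures and SE elsewhere, and intervals are 95%. DESeq2 1.42.0, limma 3.58.1 on FPKM, other filters and scalings and left-out libraries were alternatives. Within a group, no libraries were repeats of each other (lowest chi-square per degree of freedom between 2 replicates 5.51). Replicates are biological according to the series' design text, and the p-values rest on their spread.

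Members and lists were chosen with earlier results of these data known. Values in every library are given for 10 core members and for up to 5 called members per direction in each of 5 comparisons; other lists name up to 3 called genes per direction.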

Additional observations from a re-analysis of the deposited data

How the results depend on the processing

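For the 12 counts of called members, 210 of 242 alternative values were within 1.5 times the main count. With H2O2 against Blank (8 called) the count was 4 at an adjusted p under 0.01, and 15 with limma on log2(FPKM + 0.1) or log2(FPKM + 1) after the 1 FPKM filter. It was 0 with only the groups compared, 13 without Blank replicate 4 and B_I replicate 3, and 5 to 10 when 1 library was left out. Without the 4 libraries Blank 4, B_I 3, H2O2 3 and H_I 1 it was 13. With Dox against Blank (15) it was 7 at 0.01, 9 with only the groups compared and 8 to 14 with 1 library left out. With B_I against Blank (0) it was 6 without the 4 libraries (beside 53 of all genes), and with D_I against Dox (0) it was 2 with only the groups compared. With H_I against B_I (4) it was 2 at 0.01 and 1 to 4 with 1 library left out. With H_I against Blank (4) it was 1 at 0.01, 7 with DESeq2, 7 with no filter, 15 in each of the 3 limma fits, 0 with only the groups compared, 11 without Blank replicate 4 and B_I replicate 3, 10 without the 4 libraries, and 1 to 4 with 1 left out. For the differences of isoliensinine effects, H_I minus B_I (0) gave 3 without the 4 libraries, and D_I minus B_I (0) gave 2 without the 4 libraries, 1 without Blank replicate 4 and B_I replicate 3, and 0 to 1 with 1 left out. H_I against H2O2 gave 0 in every setting tried. The cause of these changes was not tested, apart from the stricter threshold, which can only remove calls. Most of these counts stand without the calls over all genes in the same setting, so a change need not be particular to the members. Of 81 called gene values, 41 passed in every setting, 40 were lost in some and 0 reversed.

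The labels do not say that replicate numbers mark a shared culture or day, so the numbers were not taken as pairs. Same-numbered libraries of different groups had correlated deviations of -0.19 to 0.28 (40 pairs, 9 over 0.1). For libraries with different numbers the range was -0.33 to 0.33 (95 pairs, 14 over 0.1). With a replicate block the counts were 8 for H2O2 against Blank (Atf5 and Ddit3 lost, Trib3 and Chac1 gained), 12 for Dox against Blank (Eif2s1, Trib3, Stc2 and Pycr1 lost, Psph gained), 4 for H_I against Blank (Atf5, Stc2 and Gpt2 lost, Chac1, Psph and Shmt2 gained) and 1 (Pycr1) for D_I minus B_I. With the block D_I against B_I had 15 members called (Nupr1 and Trib3 gained), beside 3120 of all genes. Of the 6 D_I and B_I libraries, 5 correlated best with their own number, and of the 6 H_I and B_I libraries 3. It was 2 of 6 in Dox and D_I, in H2O2 and H_I and in H_I and D_I, and 0 of 6 in H2O2 and Dox. Whether D_I and B_I libraries of the same number share a culture or day was not tested.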
